A study of Homo sapiens with 4 samples.

Results

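DNA methylation in mammals is copied, added, removed and read by different proteins, and 9 genes of that machinery are described here in neuroblastoma cells with and without a hairpin against BORIS. They are the maintenance methyltransferase DNMT1 and its guide UHRF1, the de novo methyltransferases DNMT3A and DNMT3B, the methylcytosine dioxygenases TET1, TET2 and TET3, and the methyl-CpG readers MBD2 and ZBTB33 (Kaiso). The members were chosen by symbol: every probe set whose annotation named exactly 1 of the 9 symbols was taken, which gave 31 of 49293 cellular probe sets, for 9 of 18244 genes on the array. No probe set named a member together with another gene.

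The cells were Kelly, an established cell line from a human neuroblastoma, in a derivative resistant to the ALK kinase inhibitor TAE684. Both groups were grown in 1 µM TAE684, infected for 24 h with virus and selected for 48 h in puromycin, with shBORIS in one group and shLUC (against luciferase, the control) in the other. Each group had 2 arrays, called biological duplicates in the labels, and values came from GeneChip PrimeView probe sets. One hairpin against BORIS is named, so effects of this hairpin on other transcripts cannot be told apart from effects of less BORIS, and both groups carry the drug and the resistance.

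Methylation of cytosine in CpG pairs is set by DNMT3A and DNMT3B and renewed after replication, when UHRF1 recognises the half-methylated daughter strands and brings in DNMT1. TET enzymes oxidise methylcytosine, and the product is lost at replication or is cut out by the glycosylase TDG and base excision repair. MBD2 binds methylated CpG and recruits the NuRD remodelling and deacetylase complex, and Kaiso is a zinc-finger protein that binds methylated CpG and the catenin CTNND1. BORIS, the product of CTCFL, is a germ-line paralog of CTCF, a factor whose binding at many sites is sensitive to CpG methylation.

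The promoters of the members are described from reference sequence before the array values. Whether this machinery acts on their CpG pairs was not measured. RefSeq sequence (GRCh38.p14) gave 20 windows of 300 bases, from 250 before to 50 after an annotated start, for all 9 members. The first pair printed here is that of the maintenance partners, with matches to the E2F letters TTTCGCGC in capitals. Those letters or TTTGGCGC, searched on both strands, occurred in 1 DNMT1 and 1 UHRF1 window, in no other window of a member, and in 1.15% of all 35116 promoter windows. The DNMT1 match is on the opposite strand, read as GCGCGAAA, and starts 2 bases before the annotated start, while the UHRF1 match starts 160 bases before its start. The DNMT1 window lies at chr19:10194904-10195203 (minus strand) and the UHRF1 window at chr19:4909894-4910193 (plus strand).
DNMT1: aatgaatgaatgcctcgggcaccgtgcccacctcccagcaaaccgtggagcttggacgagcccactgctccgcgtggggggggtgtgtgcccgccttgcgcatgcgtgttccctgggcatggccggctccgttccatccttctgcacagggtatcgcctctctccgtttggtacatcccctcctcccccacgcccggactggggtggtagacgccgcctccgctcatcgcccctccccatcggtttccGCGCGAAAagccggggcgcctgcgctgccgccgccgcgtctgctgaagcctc
UHRF1: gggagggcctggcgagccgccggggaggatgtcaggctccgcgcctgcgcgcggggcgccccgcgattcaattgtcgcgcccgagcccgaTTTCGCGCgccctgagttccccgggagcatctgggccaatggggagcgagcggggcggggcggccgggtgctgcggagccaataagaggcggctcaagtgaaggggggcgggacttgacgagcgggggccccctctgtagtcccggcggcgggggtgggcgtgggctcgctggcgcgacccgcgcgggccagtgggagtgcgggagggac

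The second pair shows windows of a reader and a de novo enzyme that differ in CpG content, with every CpG in capitals. The MBD2 window, at chr18:54224620-54224919 (minus strand), held 32 CpG. The DNMT3B window, at chr20:32779602-32779901 (plus strand), held 3, against a median of 14 over all windows. It is the only DNMT3B window in the reference used, and other starts of the gene may be missing there. Which start these cells use was not measured, so the count describes this window and not DNMT3B promoters in general.
MBD2: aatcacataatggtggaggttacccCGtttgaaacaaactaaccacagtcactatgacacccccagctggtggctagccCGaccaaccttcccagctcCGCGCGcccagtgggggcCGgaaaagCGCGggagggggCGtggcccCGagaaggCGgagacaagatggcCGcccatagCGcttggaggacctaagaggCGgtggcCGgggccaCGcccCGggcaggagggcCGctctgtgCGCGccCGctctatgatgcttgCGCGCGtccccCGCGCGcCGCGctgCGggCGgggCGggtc
DNMT3B: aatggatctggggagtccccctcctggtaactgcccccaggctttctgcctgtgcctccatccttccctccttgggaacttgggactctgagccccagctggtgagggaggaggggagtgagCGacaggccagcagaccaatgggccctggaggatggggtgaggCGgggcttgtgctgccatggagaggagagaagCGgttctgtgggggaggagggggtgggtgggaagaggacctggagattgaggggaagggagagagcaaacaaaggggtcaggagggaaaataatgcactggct

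Of the 20 windows, 15 held more CpG than the median window. The single DNMT3B window and the 3 TET1 windows held 3 and 6 to 11 CpG, and the 16 windows of the other members held 13 to 46. Both this split and the second printed pair were picked with the array values known. A link between CpG count and array value was not tested. The Kaiso letters CTGCNA matched in 9 windows of 7 members and in 47.8% of all windows. The letters GGNGGCAG, the end of the CTCF core, matched in 10 windows of 7 members and in 16.7% of all windows. Some windows of the same gene overlap. A TET1 site with these letters, and a DNMT3A site with the Kaiso letters, were each shared by overlapping windows. Most member windows also held more GC than the median window (58.7%), and no comparison at like GC was made. A match is a description of the reference sequence, and no binding or methylation was measured.

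Across the whole table, values were higher with shBORIS for most genes. The median intensity of all cellular probe sets was 80.8 and 84.5 with shBORIS and 64.4 and 60.4 with shLUC. That of the synthetic ERCC spike-in probe sets was 24.4 to 25.8. These spike-in medians were dim, under the intensity of 62.2 used here as the filter on low genes. How bright spike-ins alone behaved is not given. The median gene among the 10946 tested was higher by 0.48 on the log2 scale, so each difference is given as deposited and also on a centred scale, after subtraction of the median of the tested genes on each array. How much spike-in was added for a given number of cells is not stated in the labels, so more RNA per cell and a scaling difference cannot be told apart. In such bulk samples, fewer cells of a type and less RNA per cell cannot be told apart either. The hairpin's target, CTCFL, read 701 and 737 with shBORIS and 3563 and 3376 with shLUC on its brightest probe set. All 7 neuroblastoma markers with a probe set were above the filter on low genes, an intensity of 62.2, and 1 was called higher and 6 lower on the centred scale. As deposited 3 of them were called higher and none lower. Their summed intensity was 16946 and 17678 with shBORIS and 15296 and 14857 with shLUC. All 3 leukocyte and 2 of 3 Schwann cell and glial markers were under the filter. Of 6 fibroblast and endothelial markers 3 were under it and the other 3 fell on the centred scale; the summed intensity of the 6 was 686 and 747 with shBORIS and 977 and 1010.4 with shLUC. The part of such cells in the results was not tested.

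As deposited, 7 of the 9 members rose in shBORIS cells and none fell; of all genes tested, 81.9% were called, 77.2% higher and 4.64% lower. On the centred scale, 2 rose (UHRF1 and MBD2) and 2 fell (DNMT3B and TET1); of all genes tested, 59.1% were called, 30.3% higher and 28.8% lower. Called means an adjusted p under 0.05 in limma, a linear model that shares the spread across genes. The counts alone are near the background on both scales. With quantile normalization, which gives all arrays 1 distribution, 4 members were called, UHRF1 and MBD2 higher and DNMT3B and TET1 lower, while DNMT1, DNMT3A and TET3 read -0.010, -0.042 and -0.0093; of all genes tested, 55.4% were then called, 29.5% higher and 25.9% lower. The 9 differences had a median of 0.53 as deposited, beside 0.48 over all genes tested, and of 0.050 on the centred scale, beside 0.0014. All 9 members passed the filter on low genes with their brightest probe set, and the results for single members follow by role.

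**Figure D1:**
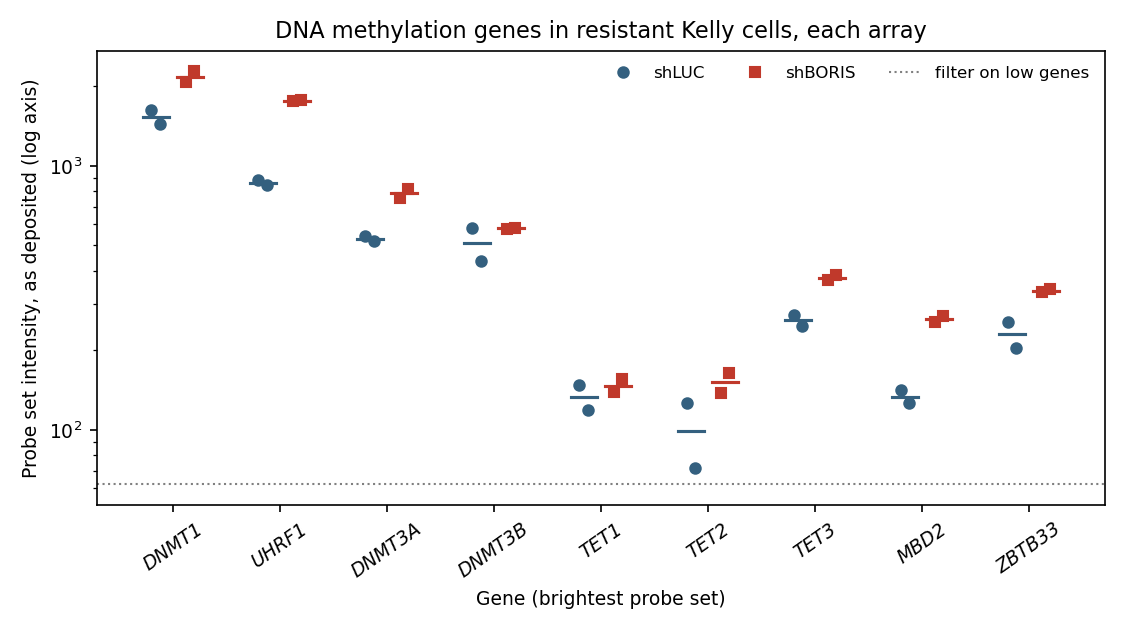
Intensity of the brightest probe set of each member on each array, as deposited, on a log axis. Circles are the 2 shLUC arrays, squares the 2 shBORIS arrays, horizontal bars the group means, and the dotted line the filter on low genes at 62.2. The shLUC points of DNMT3B and TET1 reach into the shBORIS range, and the groups of the other genes are apart. The share of all genes tested with groups apart is not given, and 77.2% of them were called higher as deposited.

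UHRF1, which finds half-methylated CpG and recruits DNMT1, had the largest difference of the 9. Its brightest probe set read 1764 and 1771 with shBORIS and 882 and 844 with shLUC. The groups were far apart, and the arrays of a group differed little: the means were 1768 ± 5.54 and 863 ± 26.2 (SD, n = 2). UHRF1 rose 2.03-fold as deposited (log2 1.02, SE 0.11; limma adjusted p = 3.86e-19). On the centred scale the rise was 1.46-fold (log2 0.54, SE 0.053; limma adjusted p = 1.88e-05). A second bright probe set read 748 and 823 against 321 and 322, a log2 difference of 1.25 as deposited. The third probe set was dim, at 25.3 to 37.4 on the 4 arrays, and its groups overlapped. UHRF1 lay above 94.1% of all genes tested.

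DNMT1, the methyltransferase that UHRF1 brings to replicated DNA, read 2071 and 2279.7 with shBORIS and 1621 and 1438 with shLUC, with no overlap. DNMT1 rose 1.42-fold as deposited (log2 0.50, SE 0.11; limma adjusted p = 4.08e-06). Its centred difference was 0.027 (95% interval -0.085 to 0.14; limma adjusted p = 0.664), and it lay above 53.1% of the genes tested, close to the middle. Its other probe set read 814 and 899.8 against 598 and 473, a log2 difference of 0.67 as deposited. Both DNMT1 probe sets were thus at or a little over the shift of the median gene.

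The maintenance pair did not move by the same amount. The log2 ratio of UHRF1 to DNMT1 within an array does not change when arrays are centred, and it was higher by 0.52 with shBORIS. Its SD was 0.093 within the shBORIS arrays and 0.077 within the shLUC arrays, and the groups were apart by at least 0.40. With 2 arrays in each group the smallest p of a two-sided exact permutation test is 0.333, so none was run on this ratio.

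DNMT3A, a de novo methyltransferase, read 755 and 820.4 with shBORIS and 542 and 518 with shLUC. The groups did not overlap. It rose 1.47-fold as deposited (log2 0.56, SE 0.11; limma adjusted p = 2.30e-06), and its difference on the centred scale was 0.080 (95% interval -0.041 to 0.20; limma adjusted p = 0.229). A second bright probe set gave 0.54 as deposited, from 617 and 677 against 466 and 415. The other 2 DNMT3A probe sets were under the filter, at 29.9 to 49.0 on single arrays, and neither passed the test as deposited. With the mean of all 4 probe sets in place of the brightest, DNMT3A read -0.18 on the centred scale (limma adjusted p = 0.0117).

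DNMT3B, the other de novo methyltransferase, lay above 20.7% of the genes tested. Its brightest probe set read 579 and 581 with shBORIS and 582 and 437 with shLUC, so that 1 shLUC array was as high as the shBORIS arrays. The log2 difference was 0.20 as deposited (limma adjusted p = 0.0998) and -0.28 on the centred scale (SE 0.088; limma adjusted p = 0.0187). That call was lost without shLUC replicate 1 (-0.13, limma adjusted p = 0.142) and with no filter (-0.17, limma adjusted p = 0.126). DNMT3B has 11 probe sets on the array, more than any other member. All 8 of them that were above the filter differed by 0.087 to 0.37 as deposited, under the 0.48 of the median gene. In the fit of all probe sets, where 55.1% were called as deposited (51.8% higher and 3.22% lower), 6 of these 8 were called higher and none lower.

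The 2 de novo enzymes and the maintenance enzyme were also compared within arrays. The log2 ratio of DNMT3A to DNMT3B was higher by 0.36 with shBORIS, with SDs of 0.079 and 0.24 and a gap of 0.14 between the groups. That of DNMT1 to DNMT3B was higher by 0.31, with a gap of 0.13. The ratio of DNMT1 to DNMT3A differed by -0.052, and the groups overlapped.

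**Figure D2:**
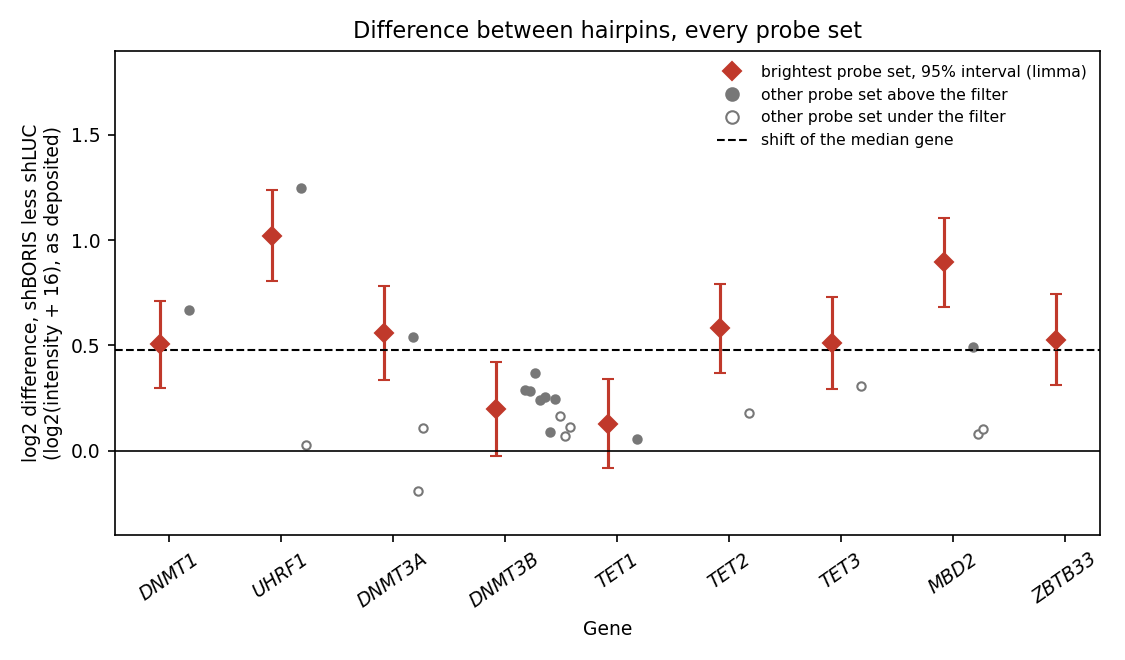
Difference between shBORIS and shLUC of log2(intensity + 16), as deposited, for every probe set of each member. Diamonds are the brightest probe sets with limma's 95% interval, filled circles other probe sets above the filter on low genes, open circles those under it, and the dashed line the median gene at 0.48. Both UHRF1 probe sets above the filter lie over that line, and all 8 of DNMT3B and both of TET1 lie under it.

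TET1, a dioxygenase that oxidises methylcytosine, was the only TET gene called on the centred scale and the only one not called as deposited. It read 139 and 156 with shBORIS and 148 and 119 with shLUC, and the groups overlapped. The log2 difference was 0.13 as deposited (95% interval -0.082 to 0.34; limma adjusted p = 0.256). TET1 fell 1.27-fold on the centred scale (log2 -0.35, SE 0.080; limma adjusted p = 0.00391), and it lay above 16% of the genes tested. Its other probe set was near the filter, at 67.5 and 79.2 against 69.3 and 70.3, a log2 difference of 0.055 as deposited.

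TET2, a related dioxygenase, read 138 and 164 with shBORIS and 126 and 71.4 with shLUC. The groups did not overlap, but shLUC replicate 2 was far under shLUC replicate 1. TET2 rose 1.5-fold as deposited (log2 0.58, SE 0.11; limma adjusted p = 2.11e-07), and the call was lost without shLUC replicate 2 (0.23, limma adjusted p = 0.102). On the centred scale its difference was 0.10 (95% interval -0.24 to 0.45; limma adjusted p = 0.586), with -0.19 without shLUC replicate 2 and 0.40 without shLUC replicate 1. A second TET2 probe set was under the filter.

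TET3, the remaining dioxygenase, read 369 and 385 with shBORIS and 272 and 248 with shLUC, with no overlap. TET3 rose 1.43-fold as deposited (log2 0.51, SE 0.11; limma adjusted p = 7.85e-06). The centred difference was 0.034 (95% interval -0.098 to 0.17; limma adjusted p = 0.645). Within arrays, the log2 ratio of TET3 to TET1 was higher by 0.38 with shBORIS, with SDs of 0.067 and 0.11 and a gap of 0.26 between the groups. That of TET2 to TET1 was higher by 0.45, with an SD of 0.30 among the shLUC arrays.

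MBD2, the reader that brings NuRD to methylated CpG, had the second largest difference. Its brightest probe set read 255 and 269 with shBORIS and 141 and 126 with shLUC. The groups did not overlap, and the means were 262 ± 9.52 and 134 ± 10.2 (SD, n = 2). MBD2 rose 1.86-fold as deposited (log2 0.89, SE 0.11; limma adjusted p = 6.83e-16). On the centred scale the rise was 1.34-fold (log2 0.42, SE 0.065; limma adjusted p = 0.000347). A second probe set read 73.8 and 101 against 58.7 and 55.0, a log2 difference of 0.49 as deposited. Both of its shLUC arrays were under the filter of 62.2, so it passed only through the group where it was high. The other 2 MBD2 probe sets were under the filter and differed by 0.080 and 0.10 as deposited. The centred rise therefore rests on 1 bright probe set, and with the mean of all 4 it was -0.044 (limma adjusted p = 0.554).

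ZBTB33, which encodes Kaiso, had a single probe set. It read 332.9 and 340.1 with shBORIS and 255 and 204 with shLUC, without overlap. ZBTB33 rose 1.44-fold as deposited (log2 0.53, SE 0.11; limma adjusted p = 3.29e-06), and its difference on the centred scale was 0.050 (95% interval -0.12 to 0.22; limma adjusted p = 0.593). The log2 ratio of MBD2 to ZBTB33 within arrays was higher by 0.37 with shBORIS, with a gap of 0.27 between the groups.

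**Figure D3:**
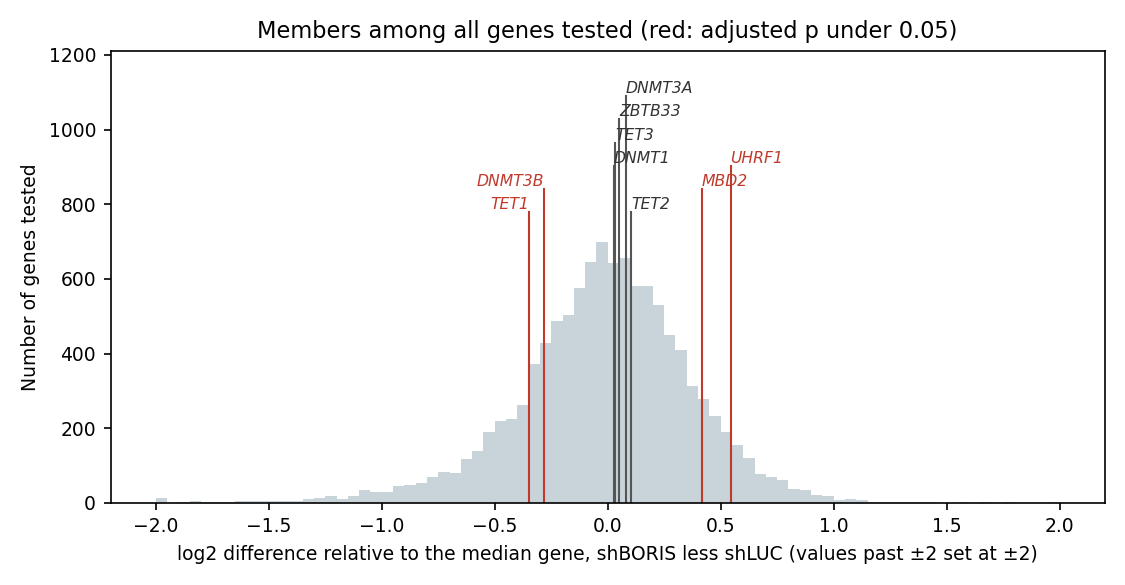
Histogram of the log2 difference on the centred scale (relative to the median gene) over the 10946 genes tested, with vertical lines at the 9 members (red where limma's adjusted p was under 0.05). UHRF1 and MBD2 lie on the right flank, DNMT3B and TET1 on the left, and the other 5 between 0.027 and 0.10.

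Over all 31 probe sets of the members, 18 were called higher as deposited and none lower. Of all probe sets 55.1% were called on that scale, 51.8% higher and 3.22% lower, so this count is near the background. The median probe set, dim ones included, was higher by 0.33. Relative to the median probe set, 8 of the 31 were called higher and 5 lower, where 49.4% of all probe sets were called, 24.9% higher and 24.5% lower. Those called higher were both probe sets of DNMT1, the brighter pair of DNMT3A and of UHRF1, and the brightest of TET3 and MBD2. Those called lower were 2 of DNMT3B, the dimmer of TET1, and 1 dim probe set each of DNMT3A and UHRF1. The latter, at means of 36.1 and 30.7, and 1 of DNMT3B, at 36.2, were under the filter. The balance of these calls depends on which probe sets set the median. Fitted without the probe sets under the 40th percentile of their own mean intensity (49.6), where the median probe set was higher by 0.46, 11 of 22 member probe sets were called: 3 higher (both of UHRF1 and the brightest of MBD2) and 8 lower (6 of DNMT3B and both of TET1). Of all probe sets kept there, 52.7% were called, 26.0% higher and 26.7% lower. Quantile normalization of all probe sets gave 12 calls among the 31, 3 higher and 9 lower, where 30.1% of all probe sets were called, 15.7% higher and 14.5% lower.

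Most genes that act with the maintenance and de novo enzymes rose. Of 10 such genes tested, 9 rose on the centred scale and none fell, with a median of 0.40; as deposited all 10 rose, with a median of 0.88. The remodeller HELLS, which opens heterochromatin for methylation, read 410.1 with shBORIS and 148 with shLUC on average, a log2 difference of 1.38 as deposited and 0.91 on the centred scale (limma adjusted p = 4.60e-06). NSD1, a histone methyltransferase whose mark is read by DNMT3A, rose by 0.64 on the centred scale. PCNA, the replication clamp that DNMT1 binds, rose by 0.43. UHRF2, a paralog of UHRF1 that was picked after its value was seen, rose by 0.44. DNMT3L, the cofactor of the de novo enzymes (also chosen after its value was seen), was under the filter, at means of 36.4 and 31.2.

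Maintenance genes are expressed with S phase, and 15 S phase reference genes are given beside UHRF1 and DNMT1. Of the 15, 11 rose on the centred scale and none fell, with a median of 0.52, beside 0.54 for UHRF1 and 0.027 for DNMT1; PCNA is also among the maintenance partners. The 3 with the smallest p as deposited, the helicase subunits MCM5 and MCM3 and the ribonucleotide reductase subunit RRM2, rose by 1.04, 0.85 and 1.01. The part of cell cycle in the UHRF1 difference was not tested.

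Genes of demethylation and base excision went both ways. Of the 16 tested, 5 rose on the centred scale and 6 fell, around a median of -0.015; as deposited 12 rose and 2 fell. CXXC4, a CpG-binding protein known to restrain TET2, rose by 0.39 on the centred scale, and the thymine glycosylase MBD4 by 0.38. The other rises, chosen after their values were seen, were OGT at 0.30, a sugar transferase that binds TET proteins, the repair scaffold XRCC1 at 0.23 and the CpG-binding protein CXXC5 at 0.14. With the mean of their probe sets OGT, XRCC1 and CXXC5 read 0.078, 0.086 and 0.0076 and did not pass, and without shBORIS replicate 2 or shLUC replicate 1 neither XRCC1 (0.18 and 0.17) nor CXXC5 (0.11 in both) passed. The glycosylase NEIL2 fell on both scales, by 0.79 as deposited and by 1.26 on the centred scale. The falls named next were chosen after their values were seen. The damage-response gene GADD45A fell by 0.58 as deposited and by 1.05 on the centred scale. TDG, the glycosylase that removes TET products, fell by 0.52 on the centred scale (limma adjusted p = 0.000177) but read -0.047 as deposited (limma adjusted p = 0.704). IDH1, IDH2 and the ligase LIG3 fell by 0.42, 0.16 and 0.21 on the centred scale, and read 0.060, 0.31 and 0.27 as deposited. With no filter the centred calls of IDH2 (-0.048) and LIG3 (-0.094) were lost. That of IDH2 was also lost without shBORIS replicate 1 (-0.11), without shLUC replicate 2 (-0.13), with a pseudocount of 64 (-0.11) and with no intensity trend, and that of LIG3 without shLUC replicate 1 (-0.18).

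Most other readers and reader partners rose as well. Of 11 other methyl-CpG and CpG readers, 8 rose and 1 fell on the centred scale, with a median of 0.28. ZBTB38, a zinc-finger relative of Kaiso, read 168 with shBORIS and 53.0 with shLUC on average and rose by 0.94 on the centred scale. Both of its shLUC arrays, at 57.3 and 48.6, were under the filter, so it was tested only through the group where it was high. The CpG-binding proteins CXXC1 and KMT2A rose by 0.56 and 0.52. MBD1, the reader that fell (chosen after its value was seen), read -0.66 on the centred scale and -0.18 as deposited (limma adjusted p = 0.102), and 0.21 as deposited with the mean of its probe sets.

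Of 12 NuRD subunits, 7 rose and 1 fell on the centred scale, with a median of 0.19. RBBP7, CDK2AP1 and GATAD2A rose by 0.60, 0.57 and 0.48. The subunit that fell, MTA1 (chosen after its value was seen), read -0.32 on the centred scale and 0.15 as deposited. Of 5 Kaiso partners and relatives tested, 3 rose and none fell: ZBTB38, ZBTB4 at 0.26 and the deacetylase HDAC3 at 0.21. ZBTB38 and ZBTB4 are also counted among the readers, as are UHRF2 and MBD4 from the lists of partners. With the mean of its probe sets ZBTB4 read 0.003 and did not pass, and without shBORIS replicate 1 HDAC3 (0.18) did not. The methyl donor cycle, which makes the methyl group that DNMT enzymes use, had 1 rise and 1 fall among 8 genes, with a median of -0.055. SHMT1 rose by 0.40 and the hydrolase AHCY (chosen after its value was seen) fell by 0.27. MAT2B and MTRR read 0.13 and 0.029 on that scale and did not pass.

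**Figure D4:**
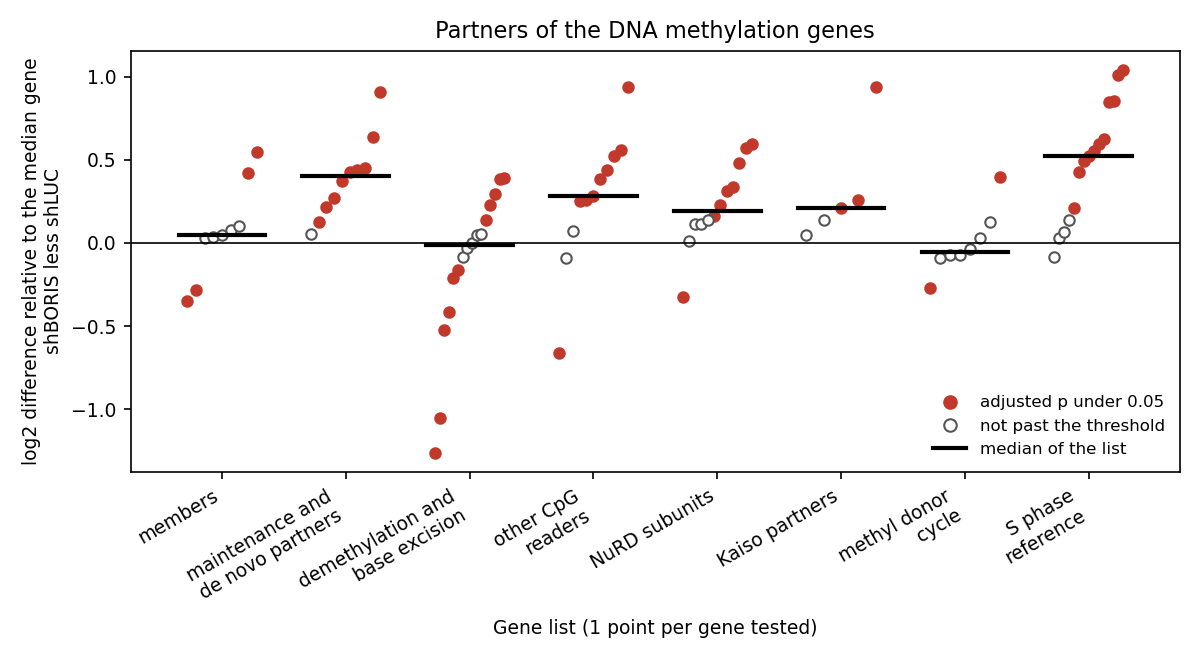
Log2 difference on the centred scale (relative to the median gene), shBORIS less shLUC, with 1 point per gene tested in each list, filled where limma's adjusted p was under 0.05, and a bar at each list's median. The list of maintenance and de novo partners lies over 0 throughout, with a median of 0.40, and that of demethylation and base excision spreads from -1.26 to 0.39.

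Germ-line genes that are kept silent by promoter methylation in somatic cells were mostly under the filter. Of 18 such genes, 16 were under the filter. With no filter 3 of the 18 were called as deposited, 2 higher and 1 lower, where 9780 of all 18244 genes were called higher and 681 lower. On the centred scale 13 were called, 1 higher and 12 lower, where 4733 of all genes were called higher and 5053 lower. A dim gene that reads alike on all arrays reads lower once the higher shBORIS median is subtracted, so these falls do not describe the list. Among the genes tested, the decile of lowest level had a centred median of -0.16. TEX15 read 86.5 with shBORIS and 43.6 with shLUC on average and rose by 0.78 as deposited and by 0.31 on the centred scale. Both shLUC arrays were under the filter, so TEX15 was tested only through the group where it was high, and its rise does not describe the list. The centred call was lost without shBORIS replicate 1 (0.27, limma adjusted p = 0.0561), without shLUC replicate 2 (0.29, limma adjusted p = 0.0570) and with a pseudocount of 64 (0.080, limma adjusted p = 0.270). DPEP3 read 302 and 466 and fell by 0.60 as deposited and by 1.08 on the centred scale. Methylation itself was not measured on these arrays.

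By the pattern over the 4 centred arrays, the genes tested that lay nearest to UHRF1 were EIF4G2, TMPO and PRKAR1B, at Euclidean distances of 0.015, 0.020 and 0.025 on the log2 scale. With 4 arrays in 2 groups, this likeness says little beyond a difference of like size between the groups.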

How the data were processed

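Intensities of 4 arrays, 2 per hairpin, were used as the authors deposited them: probe set intensity on a linear scale, 1 column per array, replicates not pooled. The submitters' processing notes list MAS5, R 3.1.3 and affy with no role, and how arrays were scaled was not given in the sources used here. Per the labels' protocols, ERCC RNA was added and 100 ng of RNA was labelled.

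From the deposited intensities, 102 Affymetrix and 100 ERCC control probe sets were left out. Symbols came from the platform annotation and were updated through the Entrez identifier (45208 of 45278 single-symbol probe sets matched GRCh38.p14). A gene was its brightest probe set by mean over the 4 arrays; genes under the 40th percentile of that mean (62.2) were left out, leaving 10946. Values were log2(intensity + 16), which understates differences of dim genes. limma 3.58.1 (R 4.3.3, intensity trend, hairpin as the only term, 2 residual degrees of freedom) gave two-sided p-values, Benjamini-Hochberg adjusted over all genes tested, threshold 0.05, on deposited and on median-centred values; the same model over all 49293 cellular probe sets gave the other probe sets. As deposited, limma's prior took infinite degrees of freedom, so the SE of a gene came from genes of like intensity and not from its own duplicates. It was 0.11 for TET2, whose shLUC arrays read 126 and 71.4, and 0.11 for UHRF1, whose duplicates differed little. The deposited-scale p-values, not only the smallest, are therefore not literal. On the centred scale the prior had 7.94 degrees of freedom. The 4 arrays limit precision. The p-values measure only the spread between duplicates, pooled over genes as deposited and partly pooled on the centred scale. The fit was also run on simulated data, and the outcome of that run is not given here.

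The members and lists were chosen with earlier results of these data known. Named were all members, CTCFL, the up to 3 genes per partner list of smallest deposited-scale p, and the 3 genes nearest to the member of largest centred difference. Alternatives were the pseudocount, filter, quantile and ERCC scaling, probe set mean, no trend, each array left out and the replicate block; those on partner genes and lists were chosen after seeing the data. Genome coordinates are only those of the printed RefSeq windows.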

Additional observations from a re-analysis of the deposited data

How the results depend on the processing

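The rise of UHRF1 passed in all 13 alternatives as deposited (log2 0.46 to 1.05) and all 11 on the centred scale (0.33 to 0.66). MBD2 passed in all 13 as deposited (0.39 to 0.97) and in 10 of 11 on the centred scale, the exception being the mean of probe sets at -0.044. TET1 passed in all 10 alternatives on the centred scale that kept it. Quantile normalization left 4 members called in place of 7 as deposited, 2 higher and 2 lower: DNMT1 read -0.010, DNMT3A -0.042, TET3 -0.0093, DNMT3B -0.37 and TET1 -0.28, and among partners IDH1 -0.52, IDH2 -0.29, LIG3 -0.27, MTA1 -0.40, AHCY -0.28 and MTRR -0.028; ZBTB33 (0.026) and TET2 (0.20) no longer passed. With the 60th percentile filter, DNMT1, TET3, ZBTB33 and MTRR read -0.043, -0.036, -0.020 and -0.041 on the centred scale. With the mean of probe sets, DNMT3A read -0.18, TET2 -0.056 and TET3 -0.028 on the centred scale, and MBD1 0.21 as deposited. With no filter, 9786 genes were called on the centred scale in place of 6468, with more genes tested; DNMT1 (0.14) and DNMT3A (0.19) then passed, as did DNMT1 (0.15) with the mean of probe sets.

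Leaving out each array in turn gave 11 to 16 member probe sets called as deposited in place of 18 and 7 to 13 relative to the median probe set in place of 13, the lowest in both cases without shBORIS replicate 2; without shLUC replicate 2 the latter count was 8. It gave ranges as deposited of -0.0045 to 0.40 for DNMT3B, -0.011 to 0.27 for TET1, -0.17 to 0.076 for TDG and -0.011 to 0.13 for IDH1, and on the centred scale of -0.0050 to 0.060 for DNMT1, -0.19 to 0.40 for TET2, -0.048 to 0.15 for ZBTB33 and -0.036 to 0.094 for MTRR. DNMT3B passed as deposited without shLUC replicate 1. With 1 array in a group, its spread is assumed to be that of the other group. The share of all probe sets called with an array left out is not given. Whether the lower counts are particular to the member probe sets therefore cannot be told. The causes of these changes were not tested. Same-numbered arrays deviated together at a correlation of 0.098 across genes, and nothing in the labels pairs them. With the replicate block 8012 genes were called as deposited in place of 8963, and 7 members as before. The block gave 13 member probe sets in place of 18, and the share of all probe sets called with it is not given.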
